A study of Mus musculus with 6 samples.

Results

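Collagens are proteins of 3 chains wound into a triple helix, and each chain has its own gene. The genes for these chains were described here in cells labelled as mouse vascular smooth muscle cells, wild type or knockout for Nono. They were chosen by name alone: a gene was a member if its symbol was Col, a number, the letter a and a number. This gave 44 of the 56393 genes in the deposited count table. Gene expression had been measured by RNA sequencing in 6 libraries from cells labelled as primary mouse vascular smooth muscle cells, 3 of genotype WT (wild type) and 3 of genotype KO (knockout of Nono). All were grown in medium with serum and received no added treatment. The labels do not say how Nono was removed, nor whether the libraries of a genotype came from separate cultures or animals. The p-values therefore cover the spread between these libraries only, which may be technical. Nono, an RNA- and DNA-binding protein of the nuclear paraspeckles, is the targeted gene, and the series asks about vascular calcification and transcription of Bmp2.

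In collagen the repeat is glycine followed by any 2 residues, and chains are grouped by what their trimers build. Fibrillar chains (types I, II, III, V and XI, with XXIV and XXVII) form the cross-banded fibrils that give tissue its tensile strength, and in arteries types I and III make up most of the collagen. Network chains (types IV, VIII and X) form sheets, with type IV as the scaffold of the basement membrane around smooth muscle and under endothelium. Beaded-filament chains (type VI and the related XXVIII) form microfibrils around cells. FACIT chains (fibril-associated collagens with interrupted triple helices) sit on the surface of fibrils, transmembrane chains stay anchored in the cell membrane, and a remainder holds the anchoring-fibril chain Col7a1, the multiplexins Col15a1 and Col18a1 of the basement membrane zone, and Col26a1.

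Library totals lay between 56529170 and 61670083 counts. Nono was at 523, 502 and 519 CPM (counts scaled to library size by TMM, which corrects for differences in RNA composition) in the WT libraries and at 56.0, 54.8 and 51.1 CPM in the KO libraries. It was thus lower in every KO library, though still counted (9.54-fold, edgeR adjusted p = 1.63e-09). The genotypes differed across the transcriptome: edgeR called 69.3% of 18732 tested genes at a threshold of 0.05 on the adjusted p, with 35.1% above WT and 34.2% below it, and in 75.5% the 3 values of each genotype did not overlap. Of 9 smooth muscle markers 5 were higher and 3 lower in KO, with Myh11, the smooth muscle myosin, at 0.467 CPM in WT and 0.219 in KO, Tagln at 0.859 and 15.01 CPM, Acta2 at 16.4 and 161 CPM, and Myocd at 0 counts in KO. Myh11, Tagln and the contractile gene Cnn1 (0.0212 CPM, and 3.49 in KO) were thus near 0 in WT. The difference of Myh11 did not pass (edgeR adjusted p = 0.375). Of the same list, Smtn was at 47.8 CPM in WT and 58.1 in KO, and Des at 4.29 and 0.848 CPM. Fibroblast markers other than collagens summed to 306 to 332 CPM in the WT libraries and 3269.7 to 3544 CPM in the KO libraries, 9 of 10 higher and 1 lower, with Lum and Thy1 at 0 counts in WT. Transcripts of 4 Y-linked genes summed to 0 to 0.0795 CPM in WT and 149.9 to 163 CPM in KO, so the sex of the source cells cannot be told apart from genotype in any result below. Of 6 tested osteoblast markers 3 were higher and 2 lower, and the 8 listed summed to 146 to 158 CPM in WT and 451 to 486 in KO. Most of that sum was Spp1 (97.3 CPM in WT, 407 in KO). Runx2 was at 43.4 and 50.2 CPM, and Alpl was lower in KO (11.9 and 1.29 CPM). Of 4 tested endothelial markers 1 was higher and 3 lower, with sums of 3.29 to 3.70 and 1.58 to 1.93 CPM, and both tested Schwann cell markers were higher, with sums of 2.02 to 2.40 and 5.75 to 6.38 CPM. Among 3 tested macrophage markers Csf1r and Cd68 were higher in KO and Lyz2 was lower (8.54 and 0.213 CPM), with sums of 9.14 to 10.54 and 5.20 to 6.21 CPM, while Ptprc and Adgre1 had 0 counts in all libraries. Of the fibroblast markers, Lum, Thy1, Dpt, Mfap5 and Fap passed the filter on low counts only with the KO libraries. So did Cnn1, Sp7, Csf1r and S100b of the other lists, among others, while Myocd, Kdr and Lyz2, among others, passed only with the WT libraries. Such directions were partly fixed by the filter, so these tallies are no support for a change of a cell type. The part of any of these markers in the collagen results was not tested.

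Collagen transcripts were more abundant in KO, and most chains moved the same way. Summed over the 44 chains, the deposited FPKM (fragments scaled by transcript length and library depth) were 416, 495 and 434 in the WT libraries and 3331, 3311 and 3155 in the KO libraries. Every KO library lay above every WT library. In counts, collagen took 0.285% ± 0.0262 of the WT libraries and 2.01% ± 0.0720 of the KO libraries (SD, n = 3 each). In a bulk sample, fewer cells of a type and less RNA per cell cannot be told apart. Of the 44 chains, 36 passed the filter on low counts, and 27 of these were higher and 5 lower in KO (edgeR adjusted p under 0.05), beside 35.1% and 34.2% of all tested genes. All 27 higher chains and 3 of the lower ones differed at least 2-fold, beside 21.6% and 19.8% of all tested genes. The median log2 fold change of these 36 chains was 2.46, beside 0.03 over all tested genes. Some chains, among them Col24a1 and Col28a1, passed the filter through the KO libraries alone and had to differ, so these counts describe the tested chains and are no support for a change of all of them. The values of the 2 genotypes did not overlap in 27 chains that were higher and 6 that were lower in KO (38.4% and 37.1% of all tested genes). By structure, 10 of 11 tested fibrillar chains, all 5 beaded, 3 of 5 FACIT, 3 of 3 transmembrane and 3 of 3 remaining chains were higher, while the 9 network chains split into 3 higher, 3 lower and 3 that did not pass. Besides Col24a1 (fibrillar) and Col28a1 (beaded), Col6a4 (beaded) and Col23a1 and Col25a1 (transmembrane) passed the filter only with the KO libraries. Col4a3 and Col8a2 (network) passed it only with the WT libraries. The tallies of these types are therefore no support for a change of the whole type. Fibroblast markers and Y-linked transcripts separated the same libraries, as given above.

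**Figure D1:**
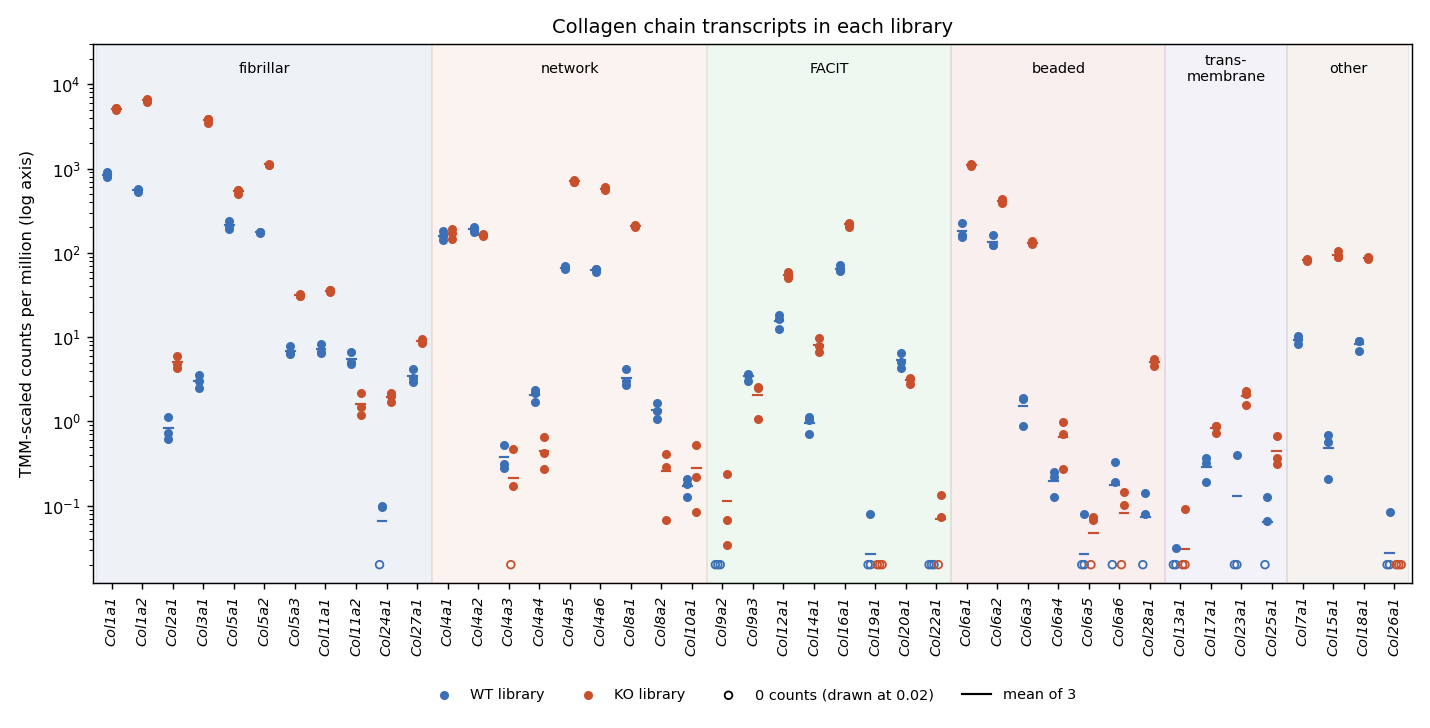
TMM-scaled CPM of each collagen chain with at least 1 count, on a log axis, grouped by structural type. Points are single libraries (WT blue, KO orange), bars are means of 3, and open circles are libraries with 0 counts, drawn at 0.02. Col3a1 stands at 3.03 CPM (WT) and 3712 CPM (KO), while the points of Col4a1 overlap.

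**Figure D2:**
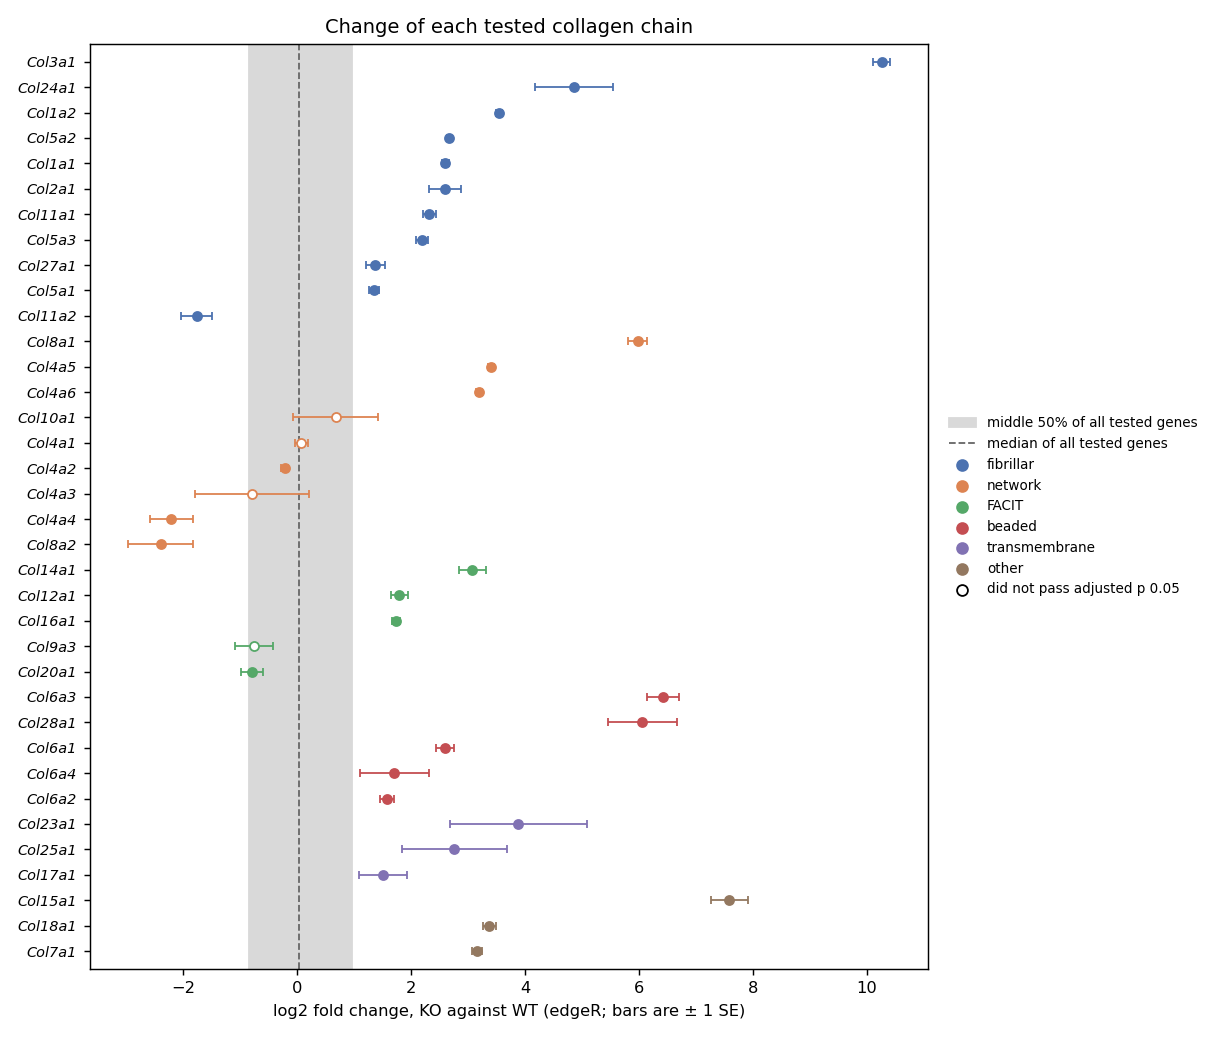
Fitted log2 fold change of the 36 tested chains (edgeR, KO against WT), with bars of ± 1 SE, coloured by structural type. Open points did not pass an adjusted p of 0.05, the grey band spans the middle 50% of all tested genes (-0.85 to 0.96) and the dashed line their median. Fibrillar chains lie to the right of the band except Col11a2 at -1.76.

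The make-up of the collagen transcripts differed between the genotypes as well. Levels of different chains were compared only per length, as deposited FPKM. Fibrillar chains made up 63.4% ± 1.46 of the summed collagen FPKM in WT and 79.4% ± 0.190 in KO (SD, n = 3 each). The network share was 15.5% ± 0.305 in WT and 7.75% ± 0.140 in KO, the beaded share 15.3% ± 1.83 and 9.85% ± 0.123, and the FACIT share 4.58% ± 0.209 and 1.69% ± 0.0319. A smaller share did not mean a lower level, because the sum itself was higher in KO. Transmembrane chains were at 0.0218% ± 0.00757 in WT and 0.0182% ± 0.00291 in KO, and the remaining chains took 1.14% ± 0.121 and 1.34% ± 0.0751. The transmembrane shares of the genotypes overlapped, and those of the other groups did not. From counts per kilobase, the remaining chains took 0.557% in WT and 1.15% in KO, a wider gap. The 3 highest chains per length in WT were Col1a1 (131 ± 12.1 FPKM), Col1a2 (100.2 ± 3.59 FPKM) and Col6a1 (40.7 ± 9.54 FPKM). In KO they were Col1a2 (1084 ± 15.01 FPKM), Col1a1 (729 ± 23.3 FPKM) and Col3a1 (565 ± 32.8 FPKM). Col1a1 and Col1a2 thus changed places at the top. Col3a1 took 0.161% ± 0.0165 of the collagen FPKM in WT and 17.3% ± 0.517 in KO. Among all genes of the table, ranked by mean FPKM, Col1a2 moved from place 639 to 41, Col1a1 from 463 to 84 and Col3a1 from 13460 to 118.

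**Figure D3:**
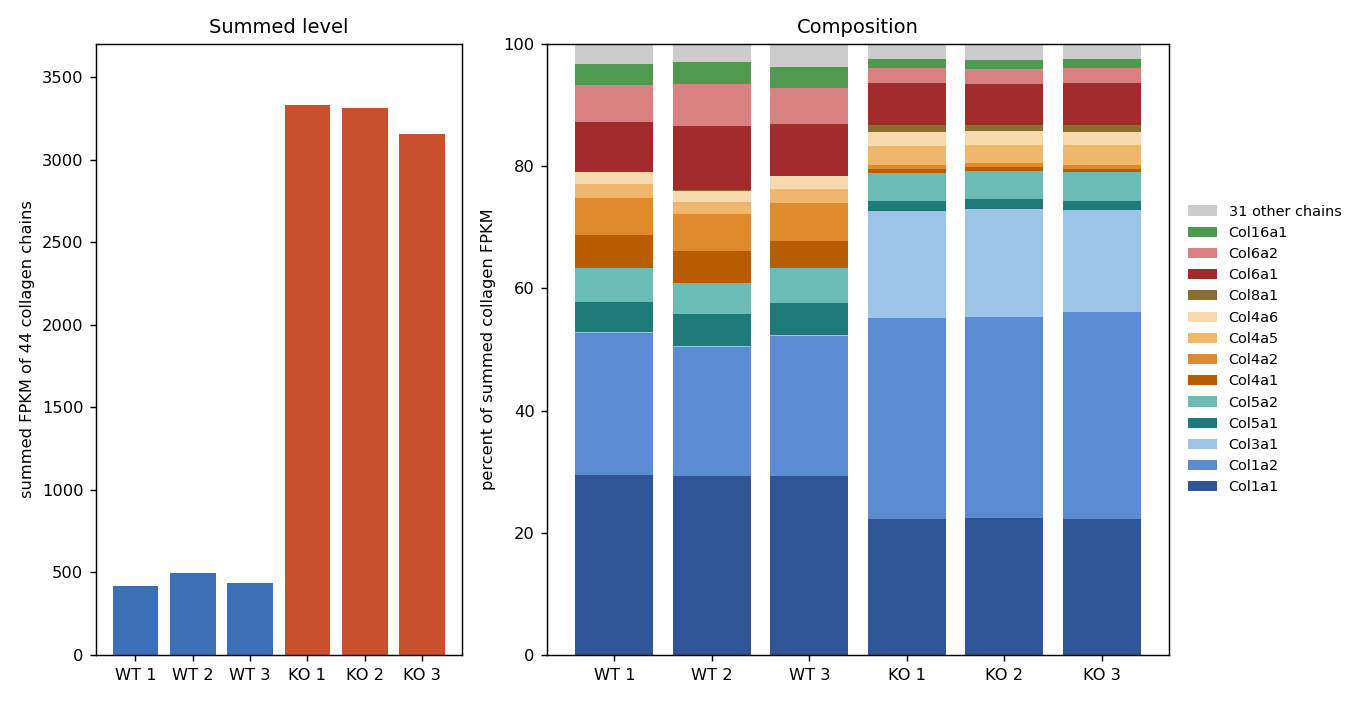
Left, summed FPKM of the 44 collagen chains in each library; right, the percent of that sum held by 13 chains and by the 31 others together. The sum is 448 on average in WT and 3266 in KO, and the light blue Col3a1 band is a thin line in the WT bars and a broad band in the KO bars.

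Among the fibrillar chains, the 2 chains of type I, the bulk collagen of arteries, bone and skin, were both higher in KO by unequal folds. Col1a1 was at 796, 921 and 820.3 CPM in the WT libraries and at 5245, 5212 and 4940.1 CPM in the KO libraries (6.07-fold). Col1a2 was at 529, 578 and 549.8 CPM in WT and at 6670.3, 6456 and 6202 CPM in KO (11.7-fold). Within a genotype the libraries lay close together, far from those of the other. Col3a1, which forms homotrimers that join type I in the fibrils of vessels, went from 2.49, 3.58 and 3.01 CPM in WT to 3842, 3829 and 3466 CPM in KO. This was the widest gap among the tested chains, 1228-fold (log2 fold change 10.26 ± 0.15 SE, edgeR adjusted p = 6e-09). A microRNA locus annotated inside Col3a1 on the same strand, Gm47302, had 17 counts in WT and 24089 in KO. It shares 141 exon bases with Col3a1, so its counts cannot be told apart from reads of Col3a1 and are no measure of a microRNA. The edgeR adjusted p was 9.35e-09 for Col1a1 and 1.17e-09 for Col1a2.

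Sequence before the start is shown for Col1a2, the highest chain per length in KO, and Col3a1, with the widest gap. Sequences here and below are from RefSeq, build GRCm38.p6, matched by symbol (35 of 44 chains matched). They run 5′ to 3′ on the strand of the gene, from up to 250 bases before the start, without bases that GENCODE M21 places in an exon. The authors' build is GRCm39, so these coordinates apply to GRCm38.p6 only. Capitals mark the CAAT box motif CCAAT, the TATA box motif with the letters TATAAA and the GC box motif, which reads GGGCGG, each searched on both strands. On the other strand the GC box motif appears in the printed run as CCGCCC.
Col1a2, chr6:4505370-4505492, plus strand: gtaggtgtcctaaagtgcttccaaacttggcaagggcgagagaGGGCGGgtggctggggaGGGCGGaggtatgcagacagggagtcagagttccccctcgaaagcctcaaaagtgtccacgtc
Col3a1, chr1:45311288-45311537, plus strand: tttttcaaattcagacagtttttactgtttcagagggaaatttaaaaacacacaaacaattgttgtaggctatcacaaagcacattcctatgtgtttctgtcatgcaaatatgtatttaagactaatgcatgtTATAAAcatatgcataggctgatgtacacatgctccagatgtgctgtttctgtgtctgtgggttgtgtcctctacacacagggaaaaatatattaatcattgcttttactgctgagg
In the printed letters Col1a2 held GGGCGG at 2 places, and Col3a1 held TATAAA and no GGGCGG. Outside the printed letters, Col1a2 also holds CCAAT at bases -109 to -105 and, on the other strand, at bases 1 to 5.

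Type V chains, which copolymerise with type I and set the start and width of fibrils, followed. Col5a1 was at 190.5, 236 and 209 CPM in WT and 558, 559 and 500.0 CPM in KO (2.55-fold). Col5a2 was at 170.3, 178 and 179 CPM in WT and 1136, 1111 and 1105 CPM in KO (6.36-fold). All 3 KO libraries lay above all 3 WT libraries for both chains. Col5a3, a chain of more restricted expression, was at 6.34, 7.77 and 6.46 CPM in WT and 30.8, 32.6 and 30.6 CPM in KO (4.57-fold). The edgeR adjusted p of these 3 chains lay between 1.19e-09 and 1.99e-06.

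The fibrillar chains known from cartilage were at low levels and went both ways. Col2a1, the main cartilage chain, was at 0.729, 0.617 and 1.13 CPM in WT and 4.31, 4.76 and 5.96 CPM in KO (6.06-fold, edgeR adjusted p = 5.67e-05). Col11a1, which nucleates cartilage fibrils and can pair with type V chains, was at 8.37, 6.47 and 6.58 CPM in WT and 34.7, 36.4 and 36.0 CPM in KO (5.00-fold). Its partner Col11a2 was the only tested fibrillar chain that fell, from 4.82, 5.09 and 6.62 CPM in WT to 1.5003, 1.18 and 2.17 CPM in KO (3.40-fold, edgeR adjusted p = 0.000409). The genotypes did not overlap for any of these chains. Col27a1, a fibrillar chain with a shorter helix, was at 2.95, 4.18 and 3.31 CPM in WT and 9.58, 8.84 and 8.57 CPM in KO (2.59-fold). Col24a1, of the same subgroup, had 12 counts over the WT libraries and 336 over the KO libraries (29.2-fold by the fit). Of 8 other chondrocyte markers 4 were tested, 3 higher and 1 lower, summing to 38.8 to 48.2 CPM in WT and 108.3 to 113 CPM in KO. Most of that sum was Sox9, while the cartilage proteoglycan gene Acan was at 0.0445 CPM in WT and 0 in KO. Comp, one of the higher markers, passed the filter on low counts only with the KO libraries. The part of these markers in the values was not tested.

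The network chains split by gene pair. Col4a1 and Col4a2, which together form the common type IV network of basement membranes, showed the smallest differences of the abundant chains. Col4a1 was at 159.7, 181 and 140.5 CPM in WT and 190.0, 172 and 145 CPM in KO, which overlap (log2 fold change 0.08 ± 0.12 SE, adjusted p = 0.595 by edgeR), and the sign of this difference turned with scaling by total counts, from FPKM and without WT replicate 3 or KO replicate 1. Col4a2 was at 177, 205 and 186 CPM in WT and 169, 162 and 159 CPM in KO, a decrease of 1.16-fold that passed the test (edgeR adjusted p = 0.0125). Col4a5 and Col4a6, chains that pair in the basement membranes of smooth muscle, rose together. Col4a5 was at 64.8, 65.2 and 69.0 CPM in WT and 722, 689.6 and 696 CPM in KO (10.6-fold, edgeR adjusted p = 9.44e-10). Col4a6 was at 59.9, 64.5 and 63.4 CPM in WT and 597, 565 and 552 CPM in KO (9.12-fold, edgeR adjusted p = 1.9e-09). By FPKM, both lay under Col4a1 and Col4a2 in WT and above them in KO. The remaining pair, Col4a3 and Col4a4, found with Col4a5 in the kidney glomerulus, was sparse in both genotypes. Col4a4 fell from 2.07 to 0.446 CPM (edgeR adjusted p = 0.000869), and Col4a3 was at 0.375 and 0.215 CPM and did not pass (edgeR adjusted p = 0.509).

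The short-chain network collagens went apart. Col8a1, a chain of type VIII collagen made by smooth muscle and endothelium of injured vessels, was at 2.69, 4.22 and 3.04 CPM in WT and 214, 204 and 211 CPM in KO (63.2-fold, log2 fold change 5.98 ± 0.17 SE, edgeR adjusted p = 7e-08). Col8a2, the other type VIII chain, was at 1.35, 1.07 and 1.65 CPM in WT and 0.409, 0.291 and 0.0679 CPM in KO, a 5.27-fold decrease on few counts (edgeR adjusted p = 0.00565). The genotypes did not overlap in either chain, and the directions were opposite. Col8a2 passed the filter on low counts only with the WT libraries, so its direction was partly fixed by the filter. Col10a1, the chain of hypertrophic cartilage, averaged 0.172 CPM (WT) and 0.278 CPM (KO) and did not pass (edgeR adjusted p = 0.444). Its exons overlap those of Nt5dc1 on the other strand.

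The pair that rose together and the pair that went apart are shown in the same way, with Col4a5 and Col4a6 reading away from each other at 1 locus.
Col4a5, chrX:141475169-141475384, plus strand: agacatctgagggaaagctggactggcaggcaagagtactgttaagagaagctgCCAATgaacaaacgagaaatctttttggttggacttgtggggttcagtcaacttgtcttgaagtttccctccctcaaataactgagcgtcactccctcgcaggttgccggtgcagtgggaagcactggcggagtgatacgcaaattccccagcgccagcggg
Col4a6, chrX:141474077-141474326, minus strand: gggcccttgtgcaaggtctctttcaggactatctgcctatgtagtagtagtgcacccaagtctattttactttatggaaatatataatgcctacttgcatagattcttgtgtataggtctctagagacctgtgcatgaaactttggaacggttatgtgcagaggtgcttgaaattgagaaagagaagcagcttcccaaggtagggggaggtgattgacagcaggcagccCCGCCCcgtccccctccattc
Col8a1, chr16:57754738-57754987, minus strand: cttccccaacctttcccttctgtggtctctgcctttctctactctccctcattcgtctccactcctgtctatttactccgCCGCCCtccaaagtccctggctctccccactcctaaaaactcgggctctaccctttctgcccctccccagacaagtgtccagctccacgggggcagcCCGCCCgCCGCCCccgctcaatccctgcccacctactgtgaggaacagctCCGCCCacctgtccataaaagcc
Col8a2, chr4:126286544-126286792, plus strand: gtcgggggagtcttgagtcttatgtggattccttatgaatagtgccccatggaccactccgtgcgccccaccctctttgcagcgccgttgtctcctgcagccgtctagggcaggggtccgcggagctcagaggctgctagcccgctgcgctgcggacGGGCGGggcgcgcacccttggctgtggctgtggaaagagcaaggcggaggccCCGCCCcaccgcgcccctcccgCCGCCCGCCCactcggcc
GGGCGG was present in the printed letters of Col4a6, Col8a1 and Col8a2, with 2 overlapping matches near the end of Col8a2, and CCAAT in those of Col4a5, whose window also holds GGGCGG nearer the start. Col8a1 and Col8a2 both held GGGCGG at 4 places. A relation of these letters to the differences between genotypes was not tested.

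All tested beaded-filament chains were higher in KO, and unequally so. Of these, Col6a4 and Col28a1 passed the filter on low counts only with the KO libraries, so this direction was partly fixed by the filter. In type VI collagen, Col6a1, Col6a2 and Col6a3 assemble into 1 molecule. Col6a1 was at 154, 227 and 164 CPM in WT and 1129.8, 1087 and 1063 CPM in KO (6.02-fold). Col6a2 was at 123, 163 and 122 CPM in WT and 429, 404 and 386 CPM in KO (2.99-fold). WT replicate 2 was the highest WT library for both, still below every KO library. Col6a3 was at 0.872, 1.92 and 1.84 CPM in WT and 132, 139 and 126 CPM in KO (85.8-fold, edgeR adjusted p = 2.29e-06), so the third chain of the molecule was scarce in WT. The chains that can stand in for it did not reach 1 CPM in either genotype: Col6a4 was at 0.199 and 0.656 CPM (edgeR adjusted p = 0.0329, a call lost in 9 of 14 alternatives), and Col6a5 and Col6a6 were not tested, with at most 0.333 CPM in a library. Col28a1, a related chain with von Willebrand factor A domains, was at 0.143, 0 and 0.0795 CPM in WT, 14 counts in all, and at 5.58, 4.60 and 5.24 CPM in KO (edgeR adjusted p = 3.45e-05).

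FACIT chains known from the surface of type I fibrils rose, and the type IX chains of cartilage were sparse or at 0 counts. Col12a1, which binds fibrils in tissues under tension, was at 16.2, 12.3 and 18.3 CPM in WT and 58.5, 50.6 and 53.6 CPM in KO (3.47-fold). Col14a1, a close relative, was at 1.03, 1.12 and 0.716 CPM in WT and 6.70, 9.69 and 7.77 CPM in KO (8.43-fold). Col16a1, found at fibrillin and fibril surfaces and made by smooth muscle and fibroblasts, was at 60.5, 70.8 and 64.1 CPM in WT and 221, 228 and 204 CPM in KO (3.35-fold). These 3 chains did not overlap between the genotypes, with edgeR adjusted p from 1.47e-07 to 8.93e-06. Col20a1 fell from 4.31, 6.49 and 5.14 CPM to 3.19, 3.27 and 2.75 CPM (1.73-fold, edgeR adjusted p = 0.00729). A gene on the same strand, BX649560.1, overlaps its exons and had 3575 counts in WT and 2125 in KO, so the value of Col20a1 is uncertain. Of the type IX chains of cartilage, Col9a1 had 0 counts in all 6 libraries, and Col9a3 averaged 3.42 CPM (WT) and 2.03 CPM (KO) and did not pass (edgeR adjusted p = 0.0756). Col9a2 had 0 counts in WT and 2, 13 and 4 in the KO libraries. Col22a1, of tissue junctions, had 0 counts in WT and 0, 4 and 8 in KO, so its genotypes overlap. Col19a1 had 5 counts in WT, all in replicate 1, and 0 in KO. A count of 0 over a genotype allows up to 0.0161 CPM in WT and 0.0174 CPM in KO (3 counts over the group, counting error only), and none of these sparse chains but Col9a3 was tested.

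Transmembrane chains were all sparse. Col17a1, of the hemidesmosomes of epithelia, averaged 0.292 CPM (WT) and 0.830 CPM (KO), and passed as higher in KO. Of 7 epithelial and mesothelial markers 3 were tested. Of these, Cdh1 passed the filter on low counts only with the KO libraries and Msln only with the WT libraries. Krt19 (59.3 CPM in WT, 8.39 in KO) and the mesothelial gene Msln (20.1 and 0.220 CPM) were lower in KO, and Cdh1, the epithelial cadherin, was higher (0.152 and 0.927 CPM). Epcam and Krt18 had 0 counts in all libraries, and the list summed to 77.0 to 84.7 CPM in WT and 8.25 to 11.3 CPM in KO. Col23a1 was at 0.396, 0 and 0 CPM in WT and 2.13, 1.56 and 2.27 CPM in KO, with all its WT counts in replicate 1. Col25a1 averaged 0.0646 CPM (WT) and 0.449 CPM (KO). The edgeR adjusted p of Col17a1, Col23a1 and Col25a1 lay between 0.0122 and 0.0269, and the calls were lost in 2 to 5 alternatives each. Without WT replicate 1, no count of Col23a1 remained in WT. Col13a1 had 2 counts over the WT libraries and 5 over the KO libraries and was not tested.

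The basement membrane zone chains outside these groups were all higher in KO. Col15a1, a multiplexin that links basement membranes to fibrils, was at 0.697, 0.567 and 0.207 CPM in WT and 88.9, 105 and 90.2 CPM in KO (193-fold, log2 fold change 7.59 ± 0.33 SE, edgeR adjusted p = 1.6e-06). Col18a1, the multiplexin whose end fragment is endostatin, was at 6.91, 9.05 and 9.11 CPM in WT and 85.7, 89.0 and 84.6 CPM in KO (10.3-fold). Col7a1, the chain of the anchoring fibrils of skin, was at 10.2, 8.20 and 9.45 CPM in WT and 83.1, 85.6 and 80.5 CPM in KO (8.94-fold). The highest WT value among these 3 chains was 10.2 CPM and the lowest KO value 80.5 CPM, and their edgeR adjusted p lay between 2.6e-08 and 1.6e-06. Col26a1 had 5 counts in WT replicate 2 and 0 elsewhere, and was not tested.

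Ratios of chains that build the same molecule differed between the genotypes in these libraries, by unequal amounts. Ratios of counts per kilobase of the longest coding transcript were taken within each library for pairs with at least 10 counts of both chains everywhere, which left 7 of 10 pairs. Type I collagen is mostly a heterotrimer with more Col1a1 than Col1a2 chains. The ratio of Col1a1 to Col1a2 was 1.36, 1.44 and 1.35 in the WT libraries and 0.709, 0.728 and 0.718 in the KO libraries, above 1 in every WT library and below 1 in every KO library. Col5a1 to Col5a2 was 0.881, 1.05 and 0.923 in WT and 0.387, 0.397 and 0.357 in KO. Col6a1 to Col6a2 was 1.42, 1.58 and 1.52 in WT and 2.99, 3.05 and 3.13 in KO. Each of these 3 ratios moved by 1.92 to 2.49-fold, against a spread within genotypes of 0.0390 to 0.107 SD on the log2 scale. Col6a3 to Col6a1 was 0.00230, 0.00342 and 0.00456 in WT and 0.0472, 0.0520 and 0.0482 in KO, a 14.9-fold change. Col11a1 to Col11a2 was 1.37, 1.004 and 0.785 in WT and 18.3, 24.3 and 13.1 in KO, a 17.5-fold change. The pairs of type IV changed least: Col4a1 to Col4a2 went from 0.824 ± 0.0772 to 1.007 ± 0.107 and Col4a5 to Col4a6 from 1.08 ± 0.0429 to 1.25 ± 0.0272 (SD, n = 3 each). In all 7 pairs the genotypes did not overlap, and each two-sided exact permutation test gave p = 0.1, or 0.1 adjusted over the pairs. This is the smallest value that 3 against 3 libraries allow, so no ratio could pass a threshold of 0.05. From the deposited FPKM the log2 change of Col6a3 to Col6a1 was 4.50, beside 3.90 from counts per kilobase.

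**Figure D4:**
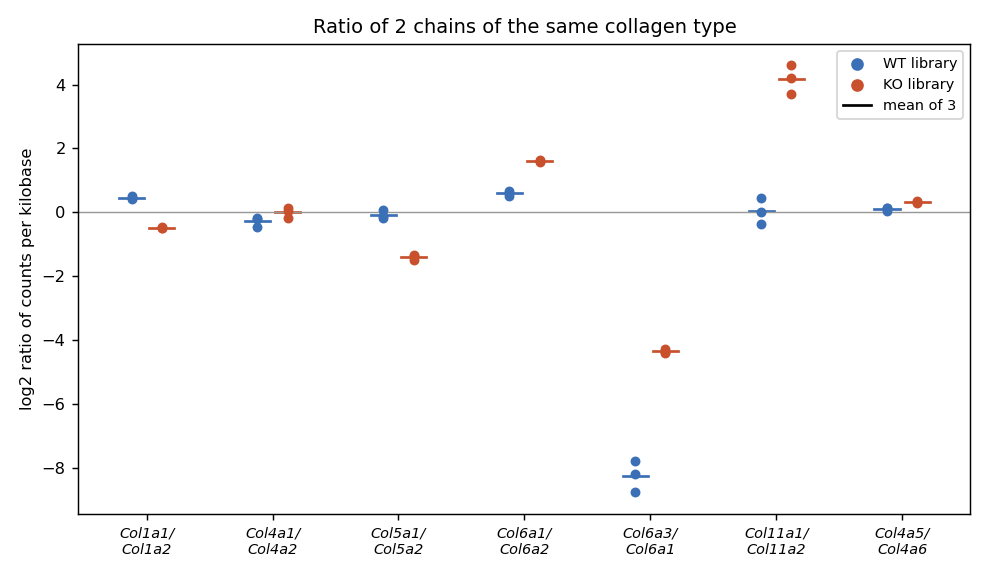
Log2 ratio of the counts per kilobase of 2 chains of the same collagen type in each library (WT blue, KO orange, bars are means of 3, the line marks equal levels). Col6a3/Col6a1 and Col11a1/Col11a2 show the widest gaps, with mean log2 ratios of -8.24 and 0.04 in WT and of -4.35 and 4.17 in KO.

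Several chains are neighbours in the genome, and neighbours did not always move alike. The 6 type IV genes lie as 3 head-to-head pairs, Col4a1 with Col4a2 on chromosome 8, Col4a3 with Col4a4 on chromosome 1 and Col4a5 with Col4a6 on chromosome X. Col4a5 and Col4a6 differed 10.6-fold and 9.12-fold, while Col4a1 and Col4a2 stayed within 1.16-fold. In the RefSeq starts used (GRCm38.p6), the first exons of Col4a1 and Col4a2 overlap by 22 bases, and the starts of Col4a5 and Col4a6 lie 1342 bases apart. Col3a1 and Col5a2 are adjacent on chromosome 1 with their ends facing, and rose 1228-fold and 6.36-fold. Col6a1 and Col6a2 are adjacent on chromosome 10 in the same direction, and rose 6.02-fold and 2.99-fold. Col6a4, Col6a5 and Col6a6 lie together on chromosome 9 and were at or under 0.982 CPM in all libraries.

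The letters before the starts were also counted over the chains. In windows of 300 bases (250 before and 50 after the start), GGGCGG was found in 22 of 35 chains (62.9%) and in 35.7% of all 32851 RefSeq windows. The chains' windows were also richer in G and C, with medians of 60.0% and 12 CG pairs beside 52.7% and 7 over all windows. CCAAT was in 12 chains (34.3%, beside 37.4% of all windows) and TATAAA in 5 (14.3%, beside 13.6%). The window of Col3a1 was 37.7% G and C with no CG pair, while the window of Col8a2 was 71.7% with 32 CG pairs. Col28a1 had no CG pair and Col5a1 had 34. A relation of these features to the differences between genotypes was not tested. A match to these letters is a description and not a binding site.

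Fibrillar chains and some FACIT chains also share an exon pattern that the naming rule did not use. The triple helix is encoded in units of 9 bases per repeat, and in fibrillar genes mostly in exons of 54 bases or lengths derived from it. Over the longest coding transcript of each chain, 47.1% of 647 coding exons of fibrillar genes were exactly 54 bases and 82.5% were a multiple of 9, beside 0.439% and 14.04% in the other genes of GENCODE M21. FACIT genes had 25.3% exons of 54 bases, network genes 3.97% and beaded genes 7.54%. Col11a1 and Col11a2 both have 31 exons of 54 bases, and Col1a2 and Col3a1 both have 24. A relation of exon structure to the differences between genotypes was not tested. Col8a1, Col8a2 and Col10a1 have 2 coding exons each and none of 54 bases.

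Genes whose products make, process, bind or break down collagen were read from a list of 63, of which 55 were tested. Of these, 38 were higher and 10 lower in KO (beside 35.1% and 34.2% of all tested genes), with a median log2 fold change of 0.80. Adamts3, Tll1 and Fap passed the filter on low counts only with the KO libraries, and Pcolce2 and Itga2 only with the WT libraries. Their directions were partly fixed by the filter. This tally and those by class below are therefore no support for a change of the whole list or of a class. Among enzymes and chaperones of hydroxylation and folding, 14 of 19 were higher and 3 lower. P4hb, the shared subunit of the prolyl hydroxylases, averaged 465 ± 21.7 CPM (WT) and 1054 ± 20.9 CPM (KO), and Plod2, a lysyl hydroxylase of the telopeptides, averaged 85.3 ± 4.76 and 193 ± 5.18 CPM. Serpinh1, the collagen chaperone HSP47, averaged 594 ± 165 CPM (WT) and 449 ± 130.04 CPM (KO) and did not pass (edgeR adjusted p = 0.29), and P3h2, a prolyl 3-hydroxylase, fell 15.6-fold (edgeR adjusted p = 0.00132). Both were chosen after their values were seen. Of the 8 secretion genes 3 were higher and 1 lower, with the smallest adjusted p for the COPII coat genes Sec23a (3.17-fold) and Sec31a (1.37-fold).

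Of 7 propeptide cleavage genes 6 were higher and 1 lower, with the directions of Tll1, Adamts3 and Pcolce2 partly fixed by the filter on low counts. Pcolce, an enhancer of C-propeptide cleavage, averaged 228 ± 9.85 CPM (WT) and 617 ± 1.31 CPM (KO), and the N-propeptide protease Adamts2 rose 11.4-fold. Pcolce2, the other enhancer, was at 45.3 ± 8.42 CPM in WT and at 0 counts in KO, at least 2617-fold lower with 3 counts per genotype as the floor. Adamts3 had no count in the WT libraries and averaged 15.7 ± 1.39 CPM in the KO libraries, at least 973-fold more. Pcolce2, Adamts3 and Loxl4, below, were chosen after their values were seen. Of the 5 lysyl oxidases, which crosslink the fibrils, 4 were higher and 1 lower. Lox rose from 280.4 ± 38.8 to 4257 ± 185 CPM and Loxl3 3.98-fold, while Loxl4 was the lower member (196 and 45.3 CPM). Of 8 receptor and uptake genes 5 were higher and 2 lower, with the smallest adjusted p for the integrin subunit Itgb1 (1.51-fold) and the uptake receptor Mrc2 (1.79-fold). Of 8 breakdown genes 6 were higher and 2 lower. Mmp14, a collagenase of the cell membrane, rose 8.54-fold and the lysosomal collagenase Ctsk from 0.273 ± 0.148 to 44.4 ± 2.88 CPM. The edgeR adjusted p of the 2 members with the smallest adjusted p in each class, which are those named above without a remark, lay between 1.85e-09 and 1.88e-05. Fap is on this list and on the fibroblast list above.

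**Figure D5:**
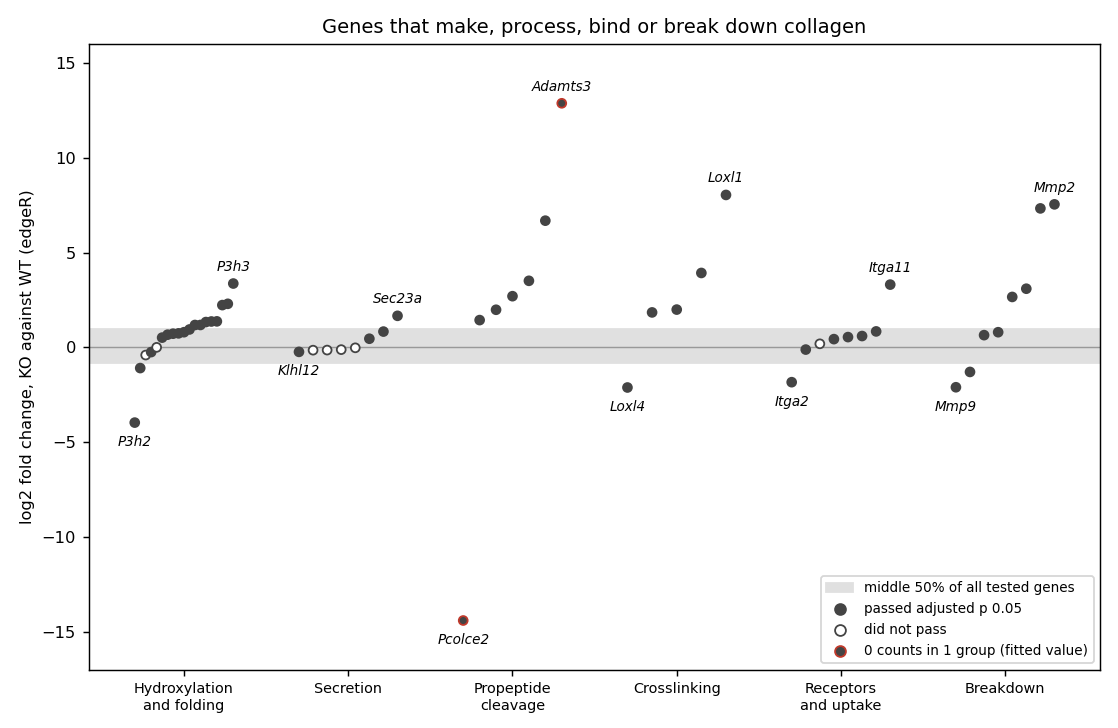
Fitted log2 fold change (edgeR, KO against WT) of the 55 tested genes of the list, by class, ordered by value within each class, with the lowest and highest named. The grey band spans the middle 50% of all tested genes, open points did not pass an adjusted p of 0.05, and red outlines mark Adamts3 and Pcolce2, which have 0 counts in 1 genotype so that their fitted values are no measured fold.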

How the data were processed

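RNA sequencing libraries of cells labelled as mouse vascular smooth muscle cells, 3 WT and 3 KO, were grouped by the genotype in the labels. The deposited table holds read counts per gene and FPKM, both made by the authors. The submitters' processing notes name CASAVA 1.8, HISAT2, SAMtools 1.3.1, edgeR and the build GRCm39. Which program counted the reads, whether it used strand and which annotation it read is not given in the sources used here.

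From the deposited counts, totals were 56529170 to 61670083 per library. Genes were filtered with filterByExpr by group, scaled with TMM and tested with edgeR 4.0.16 (robust quasi-likelihood F-test, R 4.3.3), with Benjamini-Hochberg adjustment over 18732 genes and a threshold of 0.05. The SE is the log2 fold change divided by the square root of F. CPM are TMM-scaled. From the deposited FPKM, shares and ranks were computed with no test. Ratios of chain pairs used counts per kilobase of the longest coding transcript in GENCODE M21 and an exact permutation test (scipy 1.17.1). Floors at 0 counts used 3 counts over a group. Between replicates of a genotype, chi-square over its degrees of freedom was 23.0 to 35.8, above sampling noise, so each library counts once. On simulated data (KO against WT, 18732 genes) the edgeR test recovered 48% of changes of 1.5-fold, 74% of 2-fold changes, 96% of 4-fold changes and 98% of those of 8-fold, and 13 unchanged genes were called. Only 50 genes per fold were changed there, all upward and all above 1 CPM in WT. These rates therefore do not cover chains under 1 CPM in WT, nor data in which most genes differ.

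Every chain is accounted for. Values in every library are given for chains of at least 5 CPM on average in a genotype, for the rest means or counts, with a few sparse chains also given by library. From the list of collagen-related genes, the 2 with the smallest adjusted p in each class are named. The members, groups and lists were chosen with earlier results of these data known. Alternatives were DESeq2 1.42.0, its size factors in edgeR, limma-voom (limma 3.58.1), total-count scaling, no filter, 1 CPM in 3 libraries, a replicate block, limma on log2 FPKM with a pseudocount of 0.1 or 1, and leaving out each library. Sequences and motifs are from RefSeq promoter windows. Protein sequences were not used here.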

Additional observations from a re-analysis of the deposited data

How the results depend on the processing

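Of the 36 tested chains, 29 kept their direction and their side of the threshold under all 15 alternatives that gave them a value. The number of chains higher in KO was 24 to 26 and of chains lower 5 when each library was left out. With the replicate number as a block it was 25 higher and 5 lower. Same-numbered libraries did not deviate together over the tested genes (correlations of -0.02, 0.02 and -0.01), so no pairing by number was seen. A pairing with small effects, or with effects on few genes, would be missed by these correlations. The log2 fold change of Col4a1 was -0.054 with total-count scaling, -0.027 from FPKM with either pseudocount and -0.016 to 0.18 with 1 library left out. That of Col10a1 was -0.17 to 1.11 with 1 library left out. Total-count scaling moved the median log2 fold change of all genes from 0.03 to -0.10, and gave 5902 genes higher and 7094 lower in place of 6578 and 6402. Taken from FPKM, the log2 difference between KO and WT was 4.50 for Col6a3/Col6a1 and 0.29 for Col4a5/Col4a6. From counts per kilobase in place of FPKM, the fibrillar share in KO was 79.98%, the network share in WT 15.9%, the FACIT share 3.46% in WT and 1.32% in KO, and that of the remaining chains 0.557% in WT and 1.15% in KO. The cause of these shifts was not tested. Calls of Col6a4, Col17a1, Col23a1 and Col25a1 were lost in some alternatives, and Col9a3 passed in 4 of them.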
